A study of Mus musculus with 2 samples.

Results

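This account covers 10 genes by which natural killer cells are recognised: Ncr1, Klrk1, Klrd1, Klrg1, Gzma, Gzmb, Gzmc, Prf1, Eomes and Tbx21. They were taken by gene symbol, and all 10 were found among the 22740 genes of the deposited table. RNA was sequenced from the whole uterus of 2 C57BL/6 mice on day 4 of pregnancy, with 1 library per mouse, called uterus 1 and uterus 2. Both are titled WT and form a single group, so there is no treatment, genotype or stage to compare. The labels give neither the age of the mice nor whether embryos were flushed from the horns. Values are the authors' RPKM, that is, reads scaled to gene length and library size, so levels of different genes can be compared on this scale.

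Natural killer cells are innate lymphocytes that kill target cells with perforin and granzymes and secrete cytokines. Their activity is set by a balance of activating receptors and of inhibitory receptors that read MHC class I molecules on other cells. In the mouse uterus they are present before the embryo attaches, depend on interleukin 15, and multiply in the decidua after implantation. Eomes and T-bet, the product of Tbx21, are the related T-box transcription factors that direct their development.

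Natural killer cell genes were read at low levels in both uteri. The median of the 10 genes was 1.51 RPKM in uterus 1 against 1.85 RPKM in uterus 2, below the median of all genes at 3.28 and 3.23 RPKM. At 1 RPKM or more in both uteri, 6 of the 10 were detected (Klrd1, Ncr1, Gzmb, Gzma, Klrk1 and Prf1), a share close to the 58.4% of all genes that pass the same limit. Eomes, Tbx21, Klrg1 and Gzmc did not pass it. None of the 10 was listed at 0 in either library, whereas 6636 of the 22740 genes were at 0 in at least 1 library and 23.4% were at 0 in both. More than 3 reads in both libraries were held by 8 of the 10, all but Klrg1 and Gzmc, against 63.0% of all genes. For Tbx21 this rests on how its reads were recovered, since its smallest possible reads were 1 in each library.

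The reads behind the values were estimated, because a factor common to both libraries had to be chosen. By these recovered reads, the 10 genes together held 133 in uterus 1 and 154 in uterus 2, of 3893311 and 4328044 in all. The sums over all genes exceed the scaling totals of 3834174 and 4256101. The smallest possible reads sum to 2854213 and 3163290. Intervals given below are exact 95% Poisson intervals of the recovered reads, expressed in RPKM. They cover counting error only, not the choice of factor. In whole tissue, fewer cells of a type and less RNA per cell cannot be told apart.

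**Figure D1:**
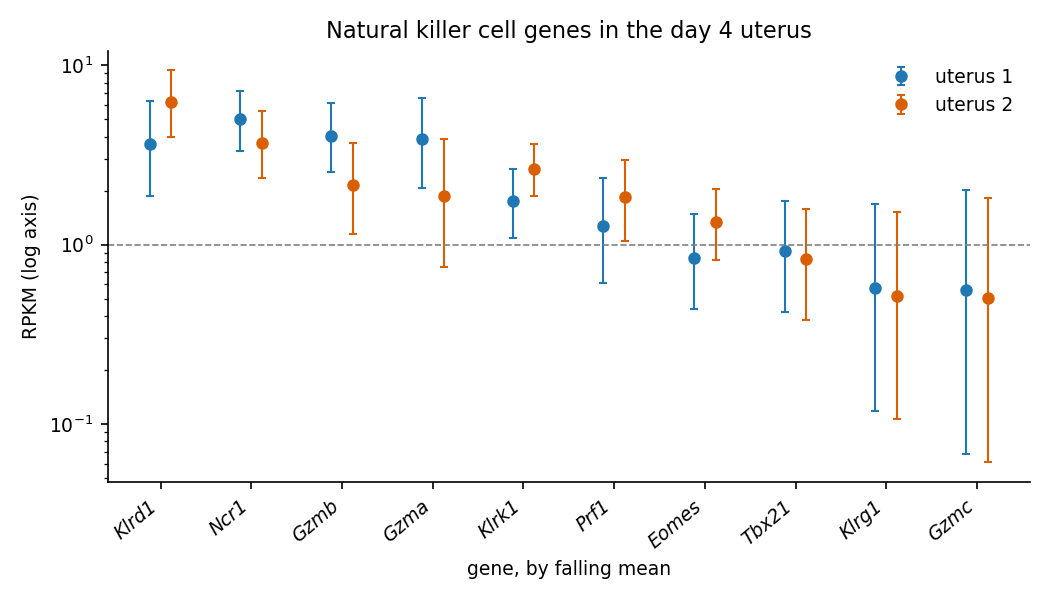
RPKM of the 10 genes (log axis) in uterus 1 (blue) and uterus 2 (orange), ordered by falling mean, with exact 95% Poisson intervals of the recovered reads as bars and a dashed line at 1 RPKM. Klrd1 and Ncr1 lie highest, Klrg1 and Gzmc lowest with the widest bars.

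Granzymes are a family of similar genes, so the first matter is whether their reads can be assigned. The coding stretch at the active-site serine is shown for the 3 granzyme genes among the 10, to show how far they differ. It is read from GENCODE M1 transcripts on mouse build NCBIM37 (mm9), minus strand in each case, from the last of 5 exons. Capitals mark the first 11 bases, which hold the codon of the active-site serine.
Gzma, chr13:113884199-113884258: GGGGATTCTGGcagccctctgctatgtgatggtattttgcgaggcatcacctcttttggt
Gzmb, chr14:56878340-56878399: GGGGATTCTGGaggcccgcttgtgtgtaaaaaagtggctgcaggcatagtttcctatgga
Gzmc, chr14:56850435-56850494: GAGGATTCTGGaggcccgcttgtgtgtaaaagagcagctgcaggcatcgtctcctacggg
Over these 60 bases, Gzma differed from Gzmb at 25 positions and Gzmc differed from Gzmb at 8. Across whole coding sequences, Gzmb and Gzmc were 76.0% identical, Gzma and Gzmb 54.7%, and Gzma and Gzmc 54.6%.

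Of the runs of 50 bases in the Gzma and Gzmb transcripts, none occurred in a transcript of another gene. The Gzmc transcript had 35 of 885 such runs (4.0%) in common with other granzymes, most of them with Gzme. The longest stretch of coding sequence that Gzmc has in common with another granzyme is 68 bases long, lies in its exon 3 and is identical in Gzme. All but 1 of its bases are also in a run of 67 bases that Gzmc has in common with Gzmg, and a run of 41 bases within it is in Gzmf. It is printed because a read inside it could belong to several genes.
Gzmc and Gzme, chr14:56851577-56851644: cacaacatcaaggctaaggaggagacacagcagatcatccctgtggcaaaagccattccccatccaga
Outside the granzymes, no run of 50 bases in Ncr1, Klrk1, Klrd1, Klrg1, Prf1 or Tbx21 was found in another gene's transcripts, and in Eomes 0.28% were. None of the 10 genes overlapped another row of the deposited table on either strand. The length of the sequencing reads is not given in the sources used here.

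Among the receptors, Klrd1 had the highest mean, though Ncr1 was the higher in uterus 1 and the intervals of these 2 genes overlapped in both libraries. Klrd1 encodes CD94, a lectin-like chain that pairs with NKG2 chains to bind the MHC class Ib molecule Qa-1. Klrd1 (NM_010654, chromosome 6, 129541829 to 129548793) lay at 3.61 RPKM in uterus 1 (interval 1.87 to 6.31) against 6.24 RPKM in uterus 2 (3.96 to 9.36), a mean of 4.93 ± 1.86 (SD, n = 2) on 12 and 23 reads. Uterus 2 was the higher, and the intervals overlapped.

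Ncr1 encodes NKp46, an activating receptor that is among the most specific surface markers of natural killer and related innate lymphoid cells in the mouse. Ncr1 (NM_010746, chromosome 7, 4289326 to 4296766) lay at 4.99 RPKM in uterus 1 (interval 3.32 to 7.21) against 3.69 RPKM in uterus 2 (2.34 to 5.54), a mean of 4.34 ± 0.918 on 28 and 23 reads. Here uterus 1 was the higher.

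Klrk1 encodes NKG2D, an activating receptor for stress-induced ligands. Klrk1 (NM_001083322, chromosome 6, 129560339 to 129573859) lay at 1.74 RPKM in uterus 1 against 2.64 RPKM in uterus 2, a mean of 2.19 ± 0.635. Its 22 and 37 reads were the most of the 10 genes in uterus 2, on the long recovered length of 3293 bases.

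Klrg1 encodes an inhibitory receptor for cadherins that marks mature natural killer cells and effector T cells. Klrg1 (NM_016970, chromosome 6, 122220619 to 122232851) lay at 0.575 RPKM and 0.518 RPKM in uterus 1 and 2, on 3 reads each. At this depth its interval ran from 0.119 to 1.68 RPKM in uterus 1, so its level is known only within that span.

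Among the granule genes, Gzmb and Gzma were highest. Gzmb (NM_013542, chromosome 14, 56877695 to 56881097), which encodes a protease that cleaves after aspartate and triggers apoptosis, lay at 4.05 RPKM in uterus 1 (interval 2.54 to 6.14) against 2.16 RPKM in uterus 2 (1.15 to 3.69), on 22 and 13 reads. Gzma (NM_010370, chromosome 13, 113884035 to 113891189), which encodes a tryptase, lay at 3.86 RPKM (2.06 to 6.60) and 1.87 RPKM (0.753 to 3.86), on 13 and 7 reads. Both were higher in uterus 1, with overlapping intervals.

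Prf1 encodes perforin, which opens the target membrane for granzymes. Prf1 (NM_011073, chromosome 10, 60760584 to 60767011) lay at 1.27 RPKM in uterus 1 against 1.83 RPKM in uterus 2, a mean of 1.55 ± 0.396 on 10 and 16 reads. Unlike both granzymes, its value was higher in uterus 2. Gzmc (NM_010371, chromosome 14, 56850238 to 56853493), a granzyme known from activated lymphocytes, lay at 0.558 and 0.503 RPKM on 2 reads in each uterus.

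The other granzymes were mostly not read. Of the 10 genes whose symbol starts with Gzm, Gzme, Gzmf, Gzmg, Gzmk and Gzmn were listed at 0 in both uteri, and Gzmd was listed at 0.557 RPKM in uterus 1, on 2 reads, and at 0 in uterus 2. Gzmm, a granzyme of innate lymphocytes, lay at 1.01 and 1.64 RPKM. A listed 0 was not read as absence, since the ribosomal protein gene Rpl26 and the globin genes of blood, among them Hbb-b1 and Hba-a1, had the same value of 0 in both. Gzmd, Gzme and Gzmg each have between 19.8% and 21.9% of their 50-base runs in common with other genes.

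The transcription factors lay near the detection limit. Eomes (NM_010136, chromosome 9, 118387307 to 118395250) lay at 0.842 RPKM in uterus 1 against 1.33 RPKM in uterus 2, a mean of 1.09 ± 0.343 on 12 and 21 reads. Tbx21 (NM_019507, chromosome 11, 96959321 to 96976645) lay at 0.92 and 0.829 RPKM, a mean of 0.874 ± 0.0645 on 9 reads in each. The ranges of these 2 genes over the uteri overlapped, so neither was the higher beyond their spread.

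By mean level the order was Klrd1, Ncr1, Gzmb, Gzma, Klrk1, Prf1, Eomes, Tbx21, Klrg1 and Gzmc. Neighbours in this order overlapped in their ranges over the 2 uteri, with Tbx21 and Klrg1 as the exception, and the Poisson intervals of those 2 overlapped in both libraries. Only 7 of the 45 pairs had intervals apart in both libraries: Klrd1 over Eomes, Tbx21 and Klrg1, and Ncr1 over Eomes, Tbx21, Klrg1 and Gzmc. The order in full is therefore not resolved at this depth.

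The uteri were then compared with each other gene by gene. The measure was the log2 ratio of uterus 2 to uterus 1 with 0.1 RPKM added to each value, which understates the change of low genes. Of the 7 genes averaging 1 RPKM or more, 4 were higher in uterus 2 (Klrd1, Klrk1, Eomes and Prf1, with 50.1% of all genes higher there) and 3 were higher in uterus 1 (Gzma, Gzmb and Ncr1). Gzma, at 3.86 and 1.87 RPKM, was the only one at least 2-fold apart, with a log2 ratio of -1.01, against 2.60% of all 13647 genes at that mean and 4.85% of those between 1 and 10 RPKM. In that direction, toward uterus 1, 1.42% of the 13647 genes passed. Here and below, shares of all genes for direction and for the 2-fold rule are of these 13647 genes. Shares of all genes for the exact binomial test are of the 15093 genes tested. With a pseudocount of 1 the log2 ratio of Gzma was -0.76 and it no longer passed.

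On recovered reads, the exact binomial test (two-sided, Benjamini-Hochberg adjusted over 15093 genes) called none of the 9 of these genes with at least 6 reads, against 5.10% of all genes. At an unadjusted p under 0.05 it also called none of the 9, against 16.1% of all genes. These shares were not matched for reads. Genes averaging 1 RPKM or more had medians of 117 and 128 reads, whereas the 9 held 3 to 37 per library. The counts therefore do not show that the 9 were steadier than other genes. The smallest p was that of Gzmb, 0.0892 unadjusted and 0.418 adjusted in this exact test. The scaled reads of Gzmb in uterus 2 were 0.532 times those in uterus 1, with an exact 95% interval from 0.246 to 1.10. For Klrd1 the ratio was 1.73 (0.825 to 3.81). The intervals of all 10 genes included 1, and each also included a 2-fold difference in at least 1 direction, so a difference of that size in that direction was not excluded at this depth. This test compares 2 libraries, not conditions, and has no replicate check.

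**Figure D2:**
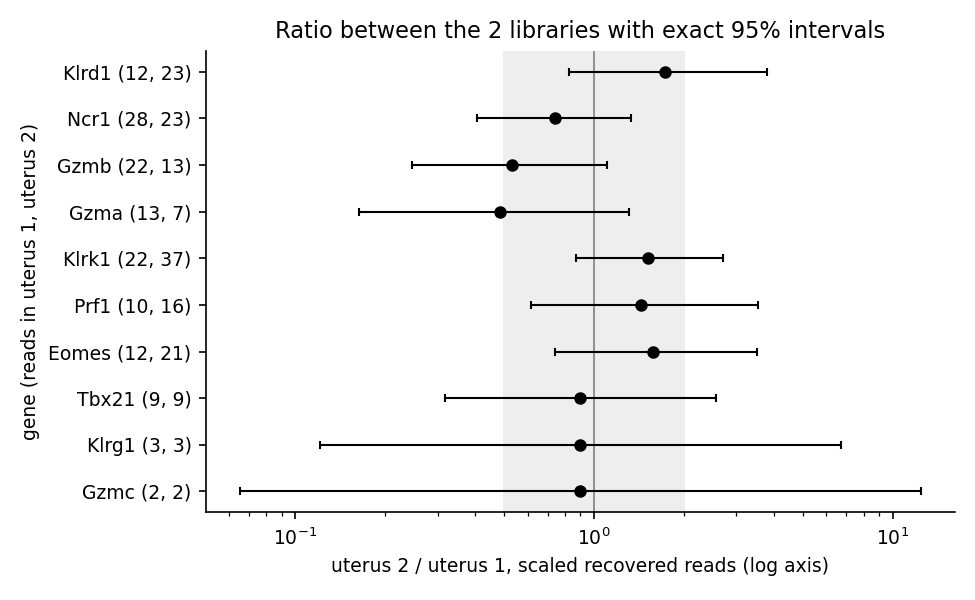
Ratio of uterus 2 to uterus 1 from scaled recovered reads (log axis) for the 10 genes, with exact 95% intervals as bars, reads in parentheses and the span within 2-fold shaded. Every interval includes 1, and that of Gzmc runs from 0.0653 to 12.4.

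Ratios within a library do not depend on its scaling. Ncr1 was 3.93 times Cd3e, a signalling chain of the T cell receptor complex, in uterus 1 and 3.76 times in uterus 2 (RPKM over RPKM), on only 7 and 6 reads of Cd3e. Cd3g, another chain of that complex and the highest of the T cell genes, was 0.562 times Ncr1 in uterus 1 and 1.12 times in uterus 2. Against Ptprc, which encodes CD45 and is expressed by all leukocytes, Ncr1 stood at 28.2% in uterus 1 and 17.1% in uterus 2. Klrd1 was 0.724 times Ncr1 in uterus 1 and 1.69 times in uterus 2, so the order of these 2 receptors differed between the animals, on reads whose intervals overlapped.

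Most other receptors of natural killer cells were also low. Of 24 such genes, 10 were at 1 RPKM or more in both uteri (58.4% of all genes), and the median was 0.906 RPKM in uterus 1 against 1.24 RPKM in uterus 2. The highest were Itga1 at 21.7 ± 0.0949 RPKM, Fcgr3 at 10.1 ± 3.13 and Itgam at 8.52 ± 0.865, and these 3 are also expressed by other cells, Itga1 by smooth muscle and the others by myeloid cells. Klre1, a lectin-like receptor of natural killer cells, lay at 3.43 and 4.89 RPKM, and Cd7 at 2.76 and 3.39 RPKM. None of the 22 tested was called by the exact binomial test (5.10% of all genes), and 7 had an unadjusted p under 0.05 (16.1% of all genes). Of these 7, Klrb1b, Klrc1, Klri2, Cd244, Cd226 and Fcgr3 were higher in uterus 2, and Ncam1 was higher in uterus 1.

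The partners of Klrd1 had lower values than Klrd1 in both uteri. In uterus 1 the intervals of Klrc3 (0.862 to 5.11) and Klrd1 (1.87 to 6.31) overlapped, so their order there was not resolved. Klrc1, the inhibitory chain NKG2A, was listed at 0 in uterus 1 and at 0.959 RPKM in uterus 2, Klrc2 lay at 0.334 and 0.601 RPKM, and Klrc3 at 2.35 and 0.706 RPKM. These 3 genes are near copies, with 40.3%, 32.2% and 45.0% of their 50-base runs in common with other genes, so their separate values are uncertain. Klrc3 was at least 2-fold higher in uterus 1, as were 1.42% of all genes, on 6 and 2 reads with an adjusted p of 0.555. Klrc1, whose mean was below 1 RPKM, had 0 and 8 reads with an adjusted p of 0.113 in the exact binomial test. Its smallest possible reads were 0 and 1. Summed, the 3 genes stood at 2.68 RPKM in uterus 1 against 2.27 RPKM in uterus 2, where Klrd1 stood at 3.61 and 6.24 RPKM. How reads in shared runs were counted is not given, so this sum is uncertain too.

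Klrd1 and Klrk1 belong to the natural killer gene complex, here taken from Klrb1a to Klra2 on chromosome 6 (128559245 to 131197380, 2.64 Mb). The span holds 57 genes of the table, 35 of them with a symbol that starts with Klr. Over all 37 Klr genes, 9 were at 1 RPKM or more in both uteri (58.4% of all genes) and 11 were listed at 0 in both (23.4%). Klrd1 was the highest of the 37 and Klre1 the next. Among the 21 Klra genes, which encode the Ly49 receptors for MHC class I, 3 were at 1 RPKM or more in both (Klra7, Klra17 and Klra2, against 58.4% of all genes) and 9 were listed at 0 in both (23.4%). Klra7 lay at 1.47 and 4.55 RPKM, at least 2-fold higher in uterus 2 (1.18% of all genes) but with an adjusted p of 0.0937 in the exact binomial test. Many Klra rows overlap each other in the deposited coordinates, and the share of 50-base runs that occur in another gene reached 67.5% in Klra3, so the separate values of such rows are uncertain. Klra7, Klra17 and Klra2 had no such run in common with another gene among the transcripts searched, and Klra17 and Klra2 overlapped no other row. Klra7 overlapped Klra12, Klra15 and Klra22. No share of runs was obtained for those rows, so runs in common with them may have been missed.

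**Figure D3:**
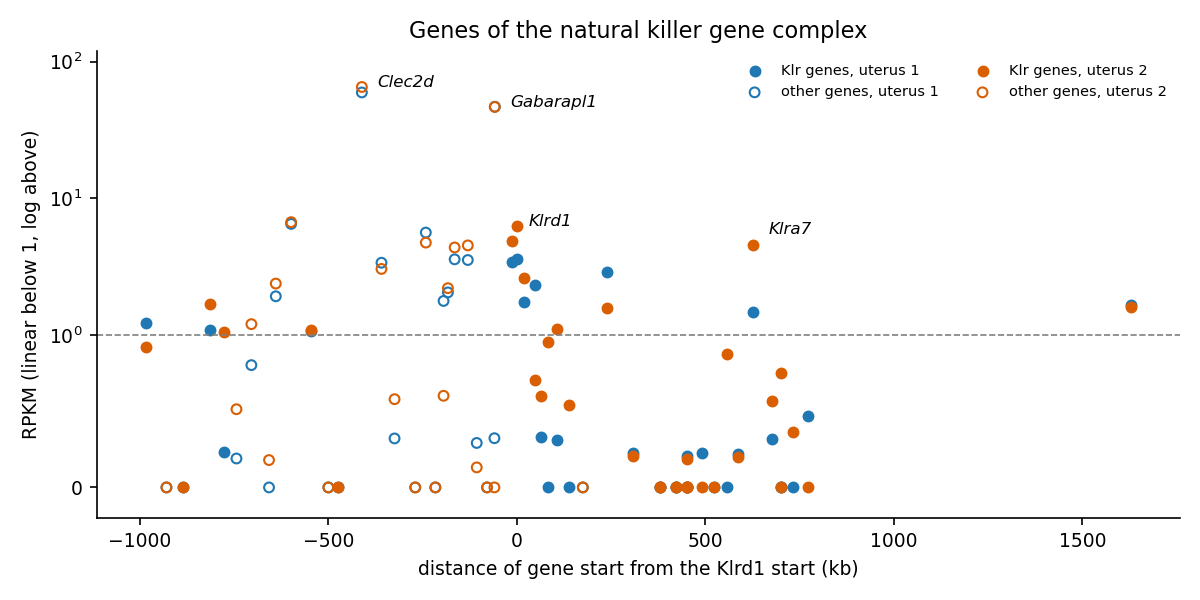
RPKM (linear below 1, log above) of the 57 genes of the natural killer gene complex against the distance of their start from that of Klrd1, with Klr genes filled and other genes open, uterus 1 in blue and uterus 2 in orange. Klrd1 is the highest Klr gene, the Klra genes to its right lie mostly at or near 0, and Clec2d and Gabarapl1 are the highest of the others.

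The adaptors through which these receptors signal lay both above and below the receptors. Tyrobp, which encodes DAP12, lay at 50.7 and 51.1 RPKM, and Fcer1g, the partner of NKp46 and of Fc receptors, at 17.0 and 24.6 RPKM. Both are also expressed by macrophages, whose genes Csf1r (21.2 ± 2.50 RPKM) and Adgre1 (18.3 ± 1.35, listed as Emr1) were well above Ncr1. The part of macrophages in the Tyrobp and Fcer1g values was not tested. Hcst, which encodes DAP10, the adaptor of NKG2D, lay at 0.59 and 2.66 RPKM, at least 2-fold higher in uterus 2 (1.18% of all genes) on 1 and 5 reads, and Cd247, the zeta chain, at 0.906 and 0.612 RPKM. Sh2d1a, the adaptor SAP, lay at 1.59 and 0.574 RPKM, at least 2-fold higher in uterus 1 (1.42% of all genes) on 5 and 2 reads. Of 15 adaptors and kinases, 10 were at 1 RPKM or more in both uteri (58.4% of all genes), and the exact binomial test called 1 of 15 (5.10% of all genes), Plcg2, at 5.22 and 7.98 RPKM with an adjusted p of 0.0348.

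Genes for the granule and its release were all detected. All 12 were at 1 RPKM or more in both uteri (58.4% of all genes), with a median of 10.8 RPKM in uterus 1 against 12.5 RPKM in uterus 2. Lamp1 was highest at 132 ± 7.85 RPKM, followed by the granule proteoglycan gene Srgn at 106 ± 5.78 RPKM. Ctsc, the protease that activates granzymes, lay at 31.6 ± 2.69 RPKM. These genes serve lysosomes and granules of many cells. Nkg7, which is largely limited to cytotoxic lymphocytes, lay at 3.53 and 4.91 RPKM, close to Klrd1 and Ncr1. Serpinb9, an inhibitor of granzyme B, lay at 9.32 ± 0.908 RPKM.

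Effector cytokines were low. Of 9 genes, 3 were at 1 RPKM or more in both uteri (58.4% of all genes): Tnfsf10 at 6.23 ± 0.813 RPKM, Xcl1 at 3.38 ± 1.84 and Ccl5 at 3.02 ± 0.106. Ifng, the main cytokine of activated natural killer cells, and Csf2 were listed at 0 in both uteri. Fasl lay at 0.27 RPKM in uterus 1 against 1.82 RPKM in uterus 2, with an adjusted p of 0.0544 in the exact binomial test. Xcl1 and Fasl, of the 4 genes averaging 1 RPKM or more, were at least 2-fold higher in uterus 2 (1.18% of all genes). Xcl1 rested on 4 and 10 reads, with an adjusted p of 0.592, and the exact binomial test called none of the 6 genes tested (5.10% of all genes), with 1 (Fasl) at an unadjusted p under 0.05 (16.1%).

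Other transcription factors of natural killer cell development lay both above and below Eomes and Tbx21. Id2 lay at 48.1 ± 2.77 RPKM, Nfil3 at 27.2 ± 1.74, Zeb2 at 24.5 ± 0.0583, Ets1 at 23.2 ± 0.0535 and Prdm1 at 18.4 ± 1.25 RPKM. Runx3 lay at 1.07 and 1.09 RPKM and Tox at 1.01 and 0.906 RPKM, near the level of Eomes, whereas Gata3 lay at 0.162 and 0.658 RPKM and Tox2 at 0.311 and 0.421 RPKM. Of 12 such genes with a value, 9 were at 1 RPKM or more in both uteri (58.4% of all genes). The exact binomial test called none of the 11 tested (5.10% of all genes), and 1 (Stat4, at 1.14 and 2.60 RPKM) had an unadjusted p under 0.05 (16.1% of all genes). Stat4 was also at least 2-fold higher in uterus 2 (1.18% of all genes).

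Of 16 genes of the interleukin 15, 12, 18 and 2 axis, 11 were at 1 RPKM or more in both uteri (58.4% of all genes). Il15 lay at 7.31 RPKM in uterus 1 against 6.03 RPKM in uterus 2, and Il15ra, which presents the cytokine, at 7.23 and 6.51 RPKM. The receptor chains Il2rb and Il2rg lay at 5.42 and 6.36 RPKM and at 7.12 and 8.16 RPKM, and Jak1 was highest of the list at 92.4 ± 0.707 RPKM. Il2rb, which is mostly a lymphocyte gene, was 1.09 times Ncr1 in uterus 1 and 1.72 times in uterus 2.

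Among the other cytokines of the list, Il18 lay at 10.8 ± 1.22 RPKM, whereas Il12a and Il12b were listed at 0 in both uteri. Il18r1 lay at 1.36 RPKM in uterus 1 against 3.10 RPKM in uterus 2, and was the only 1 of 14 tested genes of this list that the exact binomial test called (5.10% of all genes), with an adjusted p of 0.0117. It was also at least 2-fold higher in uterus 2 (1.18% of all genes). Of the 8 homing receptors, 7 were at 1 RPKM or more in both uteri (58.4% of all genes). The exact binomial test called 1 of the 7 tested (5.10% of all genes), Ccr2, at 19.3 and 25.0 RPKM with an adjusted p of 0.026, and 2 of the 7, Ccr2 and Cx3cr1 (7.85 and 5.82 RPKM), had an unadjusted p under 0.05 (16.1% of all genes). Cxcr6, a receptor of tissue-resident lymphocytes, lay at 5.65 and 7.57 RPKM.

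Ligands of these receptors differed widely in level. Of the NKG2D ligands, Raet1a, Raet1b, Raet1c, Raet1d, H60c and Ulbp1 were listed at 0 in both uteri, Raet1e lay at 0.205 and 0.553 RPKM, and H60b lay at 1.37 and 1.24 RPKM. Of all 15 ligand genes with a value, 8 were at 1 RPKM or more in both uteri (58.4% of all genes) and 6 were listed at 0 in both (23.4%). Cdh1, which encodes E-cadherin, a ligand of KLRG1, lay at 26.4 and 24.9 RPKM. H2-T23, which encodes Qa-1, lay at 22.6 RPKM in uterus 1 against 30.7 RPKM in uterus 2. The class I genes B2m (399 and 556 RPKM) and H2-K1 (181 and 252 RPKM) were the highest. The exact binomial test called 3 of the 8 ligand genes tested, H2-T23, H2-K1 and B2m, each higher in uterus 2, against 2.39% of all genes called in that direction.

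**Figure D4:**
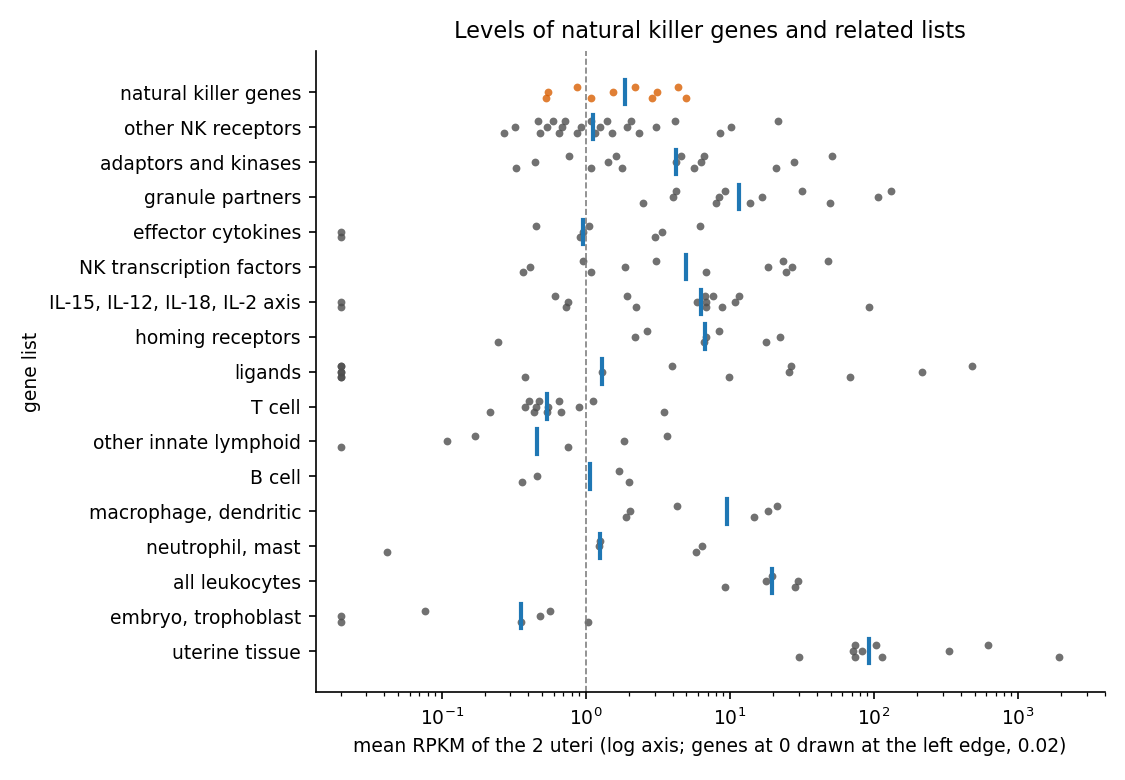
Mean RPKM of the 2 uteri (log axis) for each gene of the 10 (orange) and of related lists (grey), with the median of these means in each list as a blue bar, a dashed line at 1 RPKM and genes at 0 drawn at the left edge. The 10 genes lie between 0.531 and 4.93 RPKM, with a median of 1.87 that is above the T cell median of 0.538 and below the median of 19.7 of the genes of all leukocytes.

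Several of the 10 genes are shared with other cells, so markers of those cells are given beside them. T cells can express Klrk1, Klrg1, granzymes, Prf1, Eomes and Tbx21. Of 13 T cell genes, 1 (Cd3g, at 2.80 and 4.13 RPKM) was at 1 RPKM or more in both uteri (58.4% of all genes), none was listed at 0 in both, and their values summed to 10.4 RPKM in uterus 1 against 10.1 RPKM in uterus 2. Cd3e lay at 1.27 and 0.982 RPKM and Cd4 at 0.59 and 0.759 RPKM. The part of T cells in the shared genes was not tested.

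Other lymphoid and myeloid markers were measured in the same way. Among genes of other innate lymphoid cells, Il7r lay at 1.71 and 1.98 RPKM, Il1rl1 at 0.562 and 0.944 RPKM, and Il22 was listed at 0 in both. The 4 B cell genes summed to 2.64 RPKM in uterus 1 against 6.40 RPKM in uterus 2, with Cd79a and Cd79b, at means of 2.01 and 1.70 RPKM, at least 2-fold higher in uterus 2 (1.18% of all genes). The exact binomial test called neither, with adjusted p-values of 0.41 and 0.157. All 6 macrophage and dendritic cell genes were at 1 RPKM or more in both (58.4% of all genes), with sums of 61.8 and 62.8 RPKM. The mast cell genes Cpa3 and Mcpt4 lay at 5.83 ± 1.13 and 6.43 ± 1.64 RPKM, and the 5 neutrophil and mast cell genes with a value summed to 12.2 and 17.4 RPKM. S100a9, in this list, was at least 2-fold higher in uterus 2 (1.18% of all genes) at 0.534 and 1.93 RPKM, on 1 and 4 reads, too few for the test. The 5 genes of all leukocytes summed to 96.0 and 114 RPKM and were each higher in uterus 2 in RPKM, with none of the 5 called by the exact binomial test (5.10% of all genes) and 2 (Ptprc and Cd53) at an unadjusted p under 0.05 (16.1% of all genes).

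Eomes is also a gene of the trophoblast. Of 7 blastocyst and trophoblast genes, none was at 1 RPKM or more in both uteri (58.4% of all genes), Cdx2 and Hand1 were listed at 0 in both (23.4% of all genes), and the highest was Elf5 at 0.929 and 1.15 RPKM. Their sum was 3.01 RPKM in uterus 1 against 2.02 RPKM in uterus 2. Within the list, Nanog (0.962 and 0.173 RPKM), Pou5f1 (0.542 and 0.163 RPKM) and Gata4 (0.154 and 0 RPKM) were higher in uterus 1. Nanog, on 10 and 2 reads, had an unadjusted p of 0.0176 and an adjusted p of 0.175 in the exact binomial test. Elf5 and Tfap2c (0.425 and 0.536 RPKM) were higher in uterus 2, as Eomes was. In the same test the adjusted p-values of Elf5, Tfap2c and Eomes were 0.984, 0.971 and 0.635, so these directions were not resolved. The part of embryonic cells in the Eomes value was not tested. The 10 genes that define uterine tissue were all at 1 RPKM or more in both (58.4% of all genes), from Epcam, at 26.4 and 33.5 RPKM, to Col3a1 at 1924 ± 22.1 RPKM. The exact binomial test called 4 of these 10 (5.10% of all genes), Pgr and Acta2 as higher in uterus 1 and Myh11 and Krt18 as higher in uterus 2. An unadjusted p under 0.05 was held by 9 of the 10 (16.1% of all genes). These shares were not matched for reads, and the 10 held from 209 (Epcam) to 45924 (Col3a1) per library. At such depth small differences pass: Col3a1 had a ratio of 1.02 and an unadjusted p of 0.0172 in this test.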

How the data were processed

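Whole uterus RNA from 2 mice was sequenced by the authors, per the labels' protocols with TRIzol extraction and the TruSeq kit. The deposited values are RPKM, per the labels. TopHat, edgeR and build mm9 are named, without versions, in the submitters' processing notes. The counting program and the use of strand are not given in the sources used here. Both deposited tables hold identical values for all 22740 genes, and the main one was used. Deposited starts were 1 base before an annotated transcript start in 11970 of 20733 matched genes, so coordinates are printed counted from 1.

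RPKM are not counts. Reads were recovered from the ratio of the 2 values, which for all 16104 genes above 0 in both was a ratio of whole numbers (relative tolerance 1e-11), and from scaling totals of 3834174 and 4256101. A common factor was chosen by closeness to an annotated length (scale 0.05 in its logarithm) weighed against small factors. Where no factor was needed, 99.7% of 9197 lengths were whole within 0.02 bases. For Ncr1, Gzma, Gzmc and Prf1 the length equalled an annotated one. For Tbx21 and Klrg1 the smallest possible reads would be 1 in each library, and for Eomes 4 and 7.

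Detection was set at 1 RPKM in both, the 2-fold rule used genes averaging 1 RPKM or more with 0.1 added to each value, and the exact binomial test used genes with at least 6 reads. The recovery and the test were tested on simulated data. Identity used global alignment in Biopython 1.88. Statistics used SciPy under Python 3.11.15. The design text calls the libraries those of independent mice, with poly-A selected RNA. With 2 libraries, p-values measure only the spread of reads between them. The members and lists were chosen with earlier results of these data known. The rule for named genes took all members, all Gzm and Klr genes, and from each other list its first gene, its 5 highest by mean, those at least 2-fold apart and those listed at 0 in both. Cd247, Nkg7, Serpinb9, Tox, Runx3, Il15ra, Il2rb, Tox2, Gata3, Raet1e and H60b fall outside it and were named after their values were seen. Some genes under the rule are given only in counts. Zfp683, H60a and Ly6g were not analysed here, and 1 gene of the innate lymphoid list is not reported here. Older symbols were used where needed. A table of protein sequences was not used here. Alternatives were other thresholds, pseudocounts, filters, the TPM scale and each library alone.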

Additional observations from a re-analysis of the deposited data

How the results depend on the processing

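On the TPM scale (RPKM rescaled to a common sum per library), which multiplies all values alike, the median of the 10 genes became 3.97 against 1.68 RPKM. These medians were taken in each library and averaged over both. All 10 genes passed a limit of 1 on the TPM scale, as did 14417 of all 22740 genes. With each library alone the median was 1.51 to 1.85 and the number of genes detected 6 to 7 (13602 to 13651 of all 22740). A limit of 0.5 RPKM gave 10 genes detected (14186 of all 22740), and a limit of 2 RPKM gave 3 (12097 of all 22740). More than 3 reads in both gave 8 (63.0% of all genes). The number of the 10 genes at least 2-fold apart, 1 (Gzma), became 0 with a pseudocount of 1, 0 with a filter at a mean of 5 RPKM (which left no gene of the 10), 0 by the exact binomial test and 0 by that test on the smallest possible reads. Over all genes, the count of 355 became 153 with a pseudocount of 1, 1846 without a filter, 73 with a filter at 5 RPKM, 736 on the TPM scale (where more genes pass the filter at 1), and 769 by the exact binomial test (429 on the smallest possible reads). Ratios within a library are the same from reads per kilobase by construction. Leaving out genes listed at 0 raised the median of the ligands from 1.30 to 23.7 RPKM. No paired analysis was possible because both libraries belong to a single group. The 10 genes rest on 2 to 37 reads per gene and library, which limits the precision of each value.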

Other observations

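Between the receptor genes of the natural killer complex lie 22 other genes, of which 9 were at 1 RPKM or more in both uteri (58.4% of all genes) and 6 were listed at 0 in both (23.4%). The genes named here were chosen after their values were seen. Clec2d was the highest at 59.5 RPKM in uterus 1 against 65.2 RPKM in uterus 2. It encodes Clr-b, the ligand of the inhibitory receptor NKR-P1B, whose gene Klrb1b lay at 0.236 and 1.06 RPKM. Gabarapl1, an autophagy gene, lay at 46.8 and 46.6 RPKM. Clec12a and Clec7a, lectin genes of myeloid cells, lay at 5.63 and 4.76 RPKM and at 3.55 and 4.54 RPKM. Clec1b, a platelet and myeloid lectin, lay at 1.78 and 0.602 RPKM, at least 2-fold higher in uterus 1 (1.42% of all genes). It rested on 8 and 3 reads, with an adjusted p of 0.501 in the exact binomial test. Cd69, an early activation marker and a residency marker of lymphocytes in tissue, lay at 0.322 RPKM in uterus 1 against 0.58 RPKM in uterus 2. None of the 14 of these genes tested was called by the exact binomial test (5.10% of all genes), and none had an unadjusted p under 0.05 (16.1%).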
